A study of Sus scrofa with 9 samples.

Results

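The genes described here build and run the mitotic spindle and the kinetochore: B-type cyclins, aurora kinases, spindle checkpoint proteins, kinetochore and centromere proteins, mitotic kinesins and condensin subunits. They were taken from the deposited gene table by a rule on the wording of its protein descriptions, which uses no measured value. They numbered 58 loci of 28095. The rule and the gene lists beside it were chosen with earlier results of these data known. The table came from spleens of Ningxiang pigs, a Chinese indigenous breed, at postnatal days 30, 90 and 210, with 3 libraries at each age. The comparisons ask which genes differ between these ages. All animals were of the same breed, no treatment was labelled, and sex was not labelled. The labels tell the 3 libraries of an age apart by number alone and do not say whether each is another animal, so p-values measure the spread between these samples. A protocol in the labels mentions adipose tissue, but the tissue label is spleen. The 8 loci of splenic macrophage markers, CD163 among them, had summed levels of 497 to 620 FPKM (fragments per kilobase, scaled to library depth) at day 30, 372 to 488 at day 90 and 452 to 742 at day 210, and NKX2-5, a transcription factor of spleen mesenchyme, was among the loci expressed highly enough to be tested. The 3 adipocyte loci summed to 0.406 to 1.23 FPKM in all libraries, and ADIPOQ was listed at 0 in 8 of the 9.

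A dividing cell condenses its chromosomes with condensins, activates CDK1 through B-type cyclins, and builds a spindle whose microtubules attach to the kinetochore, a protein assembly on each centromere. The inner kinetochore sits on centromeric chromatin and the outer kinetochore, with the NDC80 complex at its core, holds the microtubule. The checkpoint proteins delay the separation of chromosomes until every kinetochore is attached, aurora B with INCENP corrects wrong attachments, and kinesins move and shape the spindle and the midzone. These messages accumulate mainly in cells that approach division, which in spleen include activated lymphocytes and, where blood formation takes place there, erythroid precursors. In bulk tissue, fewer dividing cells and less RNA per dividing cell cannot be told apart.

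Within each age no library was a copy of another, and counted reads per library ran from 48.9 to 62.1 M. Reads on the 58 loci were 0.0783 to 0.0874% of all counted reads at day 30, 0.0633 to 0.0840% at day 90 and 0.0474 to 0.0805% at day 210. The lowest share belonged to day 210 replicate 2, which stands apart from the other 8 libraries in what follows. The deposited FPKM are used as they stand, and over all loci tested they were lowest in day 90 replicate 3 at 31.1% of loci and in day 90 replicate 2 at 19.5%. Fitted changes were therefore taken from counts scaled by TMM (trimmed mean of M values), and FPKM are given as levels.

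The genes were expressed at modest levels. Over all 58 loci, including 5 with a mean under 1 FPKM, their mean FPKM over the 9 libraries had a median of 2.96. For the 19264 loci tested, only those whose mean reached 1 FPKM, the median was 2.87. Of the 58 loci, 53 reached that mean and 12 reached 5 FPKM. The highest means were those of MAD2L2, a MAD2-related protein that also serves in DNA repair, and NCAPH2, a condensin II subunit, both at 8.54 FPKM, and of cyclin B1 (CCNB1) at 8.42 FPKM. The 5 untested loci were all 3 loci described as aurora kinase C (means 0.467, 0.574 and 0.298 FPKM), a locus described as aurora kinase A-like (0.0700 FPKM) and MEIKIN, a regulator of meiotic kinetochores (0.222 FPKM). The lowest tested locus was AUNIP, an aurora A partner, at 1.08 FPKM. Summed over the 58 loci, the day 30 libraries had 236, 211 and 205 FPKM, the day 90 libraries 226, 149 and 157, and the day 210 libraries 218, 122 and 176.

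The B-type cyclins, which activate CDK1 at the entry to mitosis, gave the widest spread within an age of all the roles. CCNB1 (chromosome 16, 32943763 to 32953062) had 11.5, 8.74 and 8.90 FPKM at day 30, 10.1, 7.18 and 7.31 FPKM at day 90, and 11.9, 2.68 and 7.51 FPKM at day 210. The highest and the lowest of its 9 values both belonged to day 210, so the ages overlapped. CCNB2 (chromosome 1, 143367220 to 143401212) had 5.67, 3.77 and 2.88 FPKM at day 30, 4.12, 2.62 and 2.86 FPKM at day 90, and 4.16, 1.01 and 2.67 FPKM at day 210. CCNB3, a cyclin best known from meiosis, had 3.04, 3.05 and 2.28 FPKM at day 30, 2.83, 1.65 and 1.53 FPKM at day 90, and 2.92, 0.987 and 2.73 FPKM at day 210. All 3 cyclins were lowest in day 210 replicate 2. Their fitted log2 changes day 210 against day 30 were −0.37 ± 0.40 (CCNB1), −0.62 ± 0.43 (CCNB2) and −0.29 ± 0.36 (CCNB3; value ± standard error), each smaller than the spread between libraries allows to be called.

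The coordinates are those of the deposited table. Its assembly is not that of the RefSeq annotation Sscrofa11.1: 52 of the 56 loci whose symbol RefSeq lists were on the same chromosome in both, and 0 overlapped in position. The build named in the labels is a mouse build, so the pig assembly behind the coordinates is not given in the sources used here, and no sequence is printed.

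Of the aurora kinases, AURKB, the kinase of the chromosomal passenger complex, had 3.92, 2.98 and 3.08 FPKM at day 30, 3.53, 2.38 and 2.66 FPKM at day 90, and 3.28, 1.32 and 2.81 FPKM at day 210. INCENP, the scaffold of the same complex, had 4.63, 3.49 and 4.06 FPKM at day 30, 4.42, 2.997 and 3.01 FPKM at day 90, and 4.45, 1.92 and 3.96 FPKM at day 210. Both were lowest in day 210 replicate 2, and the ages overlapped in every pair for both. AURKA, the kinase of spindle poles, had 4.17, 4.23 and 3.65 FPKM at day 30, 5.18, 2.10 and 2.63 FPKM at day 90, and 4.84, 2.08 and 3.83 FPKM at day 210. Its locus overlaps a locus on the other strand over 17658 bases, described as FAM210B and CSTF1, with 15485 counts over the 9 libraries against 5754 of its own. The strand of the counting is not given in the sources used here, so reads of the 2 loci cannot be told apart. Fitted changes day 210 against day 30 were −0.39 ± 0.28 for AURKB, −0.19 ± 0.26 for INCENP and −0.13 ± 0.31 for AURKA. The 3 aurora kinase C loci share their description, so reads may be split among near-identical copies, and they are given as levels only.

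Spleen libraries differed more in the checkpoint kinases than in the other checkpoint proteins. BUB1B (chromosome 1, 125096906 to 125146864), the BUBR1 component of the mitotic checkpoint complex, had 7.47, 6.68 and 5.99 FPKM at day 30, 6.69, 5.09 and 5.01 FPKM at day 90, and 6.82, 2.28 and 4.98 FPKM at day 210. BUB1, the kinase that recruits checkpoint proteins to the kinetochore, had 5.70, 5.58 and 5.28 FPKM at day 30, 6.21, 3.29 and 4.87 FPKM at day 90, and 6.42, 1.98 and 4.48 FPKM at day 210. MAD2L1, the MAD2 protein that inhibits CDC20, had 9.37, 7.77 and 6.87 FPKM at day 30, 8.27, 4.34 and 4.93 FPKM at day 90, and 7.98, 3.14 and 4.83 FPKM at day 210. These 3 were lowest in day 210 replicate 2, as was KNTC1, a subunit of the complex that brings MAD1 and MAD2 to kinetochores, at 1.17 FPKM there and 2.01 to 3.02 FPKM in the other 8 libraries. BUB3, the partner that docks BUB1 and BUBR1, behaved differently. It had 5.37, 5.76 and 5.54 FPKM at day 30, 6.63, 4.58 and 4.49 FPKM at day 90, and 6.55, 5.27 and 4.76 FPKM at day 210, so day 210 replicate 2 lay inside the range of the other libraries. ZW10, which works with KNTC1, lay between 4.36 and 6.96 FPKM in all libraries, with 5.22 FPKM in day 210 replicate 2, which on the log2 scale of counts scaled to library size (CPM) was its lowest library, 0.16 below its mean.

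MAD1, the anchor of MAD2, is described at 2 loci on unplaced scaffolds. The longer one (MSTRG.22465, Scaffold268) lay between 1.89 and 3.44 FPKM and the shorter one (MSTRG.22543, Scaffold3082) between 0.695 and 1.86 FPKM, with 22 to 57 reads per library. As they share a description, the split of reads between them is uncertain. MAD2L2 had 12.9, 10.95 and 7.82 FPKM at day 30, 7.79, 6.57 and 7.47 FPKM at day 90, and 7.31, 7.66 and 8.41 FPKM at day 210. All day 90 values were below all day 30 values, but its fitted change was −0.34 ± 0.22 (adjusted p = 0.408, edgeR quasi-likelihood test with Benjamini-Hochberg adjustment over all loci tested). Its locus also overlaps FBXO6 on the other strand over 276 bases, with 22007 counts at that locus against 3646.

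In the outer kinetochore the NDC80 complex binds the microtubule through NDC80 and NUF2, and SPC24 and SPC25 tie it to the centromere. NDC80 had 2.41, 2.11 and 2.71 FPKM at day 30, 2.81, 1.82 and 2.16 FPKM at day 90, and 2.59, 0.833 and 1.77 FPKM at day 210. NUF2 had 3.70, 3.21 and 3.30 FPKM at day 30, 3.85, 2.51 and 2.62 FPKM at day 90, and 3.50, 1.84 and 2.49 FPKM at day 210. SPC24 was at 0.998 FPKM in day 210 replicate 2 and at 1.64 to 3.62 FPKM in the other 8 libraries. NDC80, NUF2 and SPC24 were thus lowest in the same library. SPC25 was at 2.10 FPKM there, within its range of 1.59 to 3.48 FPKM, so the 4 subunits of 1 complex did not share their lowest library. The fitted changes day 210 against day 30 were −0.43 ± 0.32 for NDC80 and −0.34 ± 0.22 for NUF2. They were −0.42 ± 0.39 for SPC24 and −0.11 ± 0.31 for SPC25, and none of the 4 passed the test.

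The SKA complex, which stabilises attached microtubules, was equally uneven. SKA1 had 0.495 FPKM in day 210 replicate 2 and 0.671 to 1.62 FPKM elsewhere, and SKA2 1.78 FPKM there and 1.86 to 3.003 FPKM elsewhere. SKA3 had 6.90, 5.58 and 4.79 FPKM at day 30, 4.70, 3.11 and 4.67 FPKM at day 90, and 4.80, 4.76 and 5.32 FPKM at day 210. SKA3 was the 1 tested locus of the 53 with all day 210 values above all day 90 values (13.3% of all loci). Its fitted change there was only 0.10 ± 0.21. CENPF, a large protein of the outer kinetochore, had 5.94, 5.11 and 4.72 FPKM at day 30, 4.44, 2.43 and 3.15 FPKM at day 90, and 4.12, 1.73 and 4.14 FPKM at day 210. Both later ages lay below day 30 without overlap for CENPF, with fitted changes of −0.48 ± 0.31 at day 90 and −0.61 ± 0.31 at day 210, and neither passed the test. KNSTRN, a spindle and kinetochore adaptor, had 1.96 FPKM in day 210 replicate 2 and 2.51 to 4.37 FPKM in the others.

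The MIS12 complex bridges the inner and the outer kinetochore, and 2 of its subunits were among the members. NSL1 had 3.45, 3.37 and 3.58 FPKM at day 30, 3.64, 3.09 and 2.51 FPKM at day 90, and 3.80, 3.99 and 2.47 FPKM at day 210, so that its highest value belonged to day 210 replicate 2. DSN1 lay between 2.62 and 4.11 FPKM, with 2.62 FPKM in day 210 replicate 2, where it was 0.36 below its mean on the log2 CPM scale and lower than in any other library. Its locus shares 17184 bases on the same strand with SAMHD1, which had 93570 counts against 2394, so its level is uncertain. MIS12 itself was not among the descriptions matched.

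The inner kinetochore proteins included both the lowest and the highest deviations in day 210 replicate 2. CENPC (chromosome 8, 66530714 to 66608431), the platform that links centromeric chromatin to the outer kinetochore, had 5.99, 5.88 and 8.11 FPKM at day 30, 8.59, 6.16 and 5.94 FPKM at day 90, and 8.83, 9.41 and 6.12 FPKM at day 210. Its highest value came from the library in which most other members were lowest. CENPT (chromosome 6, 143651872 to 143657332), the second route from chromatin to the NDC80 complex, had 4.88, 3.52 and 3.85 FPKM at day 30, 4.18, 2.21 and 2.41 FPKM at day 90, and 2.90, 0.840 and 3.77 FPKM at day 210. Set against the mean of the 9 libraries on the log2 CPM scale, CENPT was 1.79 lower in day 210 replicate 2, the lowest deviation of any member in any library. CENPC was 0.37 higher there.

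CENPO (chromosome 3, 19208507 to 19219004), a subunit of a kinetochore complex that recruits the kinase PLK1, came closest to a difference between ages. It had 2.30, 2.30 and 1.75 FPKM at day 30, 1.999, 1.68 and 1.51 FPKM at day 90, and 1.37, 0.765 and 1.34 FPKM at day 210. All 3 day 210 values lay below all 6 earlier ones. By edgeR the fitted change was −0.83 ± 0.25 day 210 against day 30 (adjusted p = 0.0816). Day 210 against day 90 it was −0.73 ± 0.25 (adjusted p = 0.228, edgeR), and neither passed the threshold of 0.05. DESeq2 gave −0.83 with an adjusted p of 0.0182 day 210 against day 30, in a comparison in which it called 11.9% of all loci. Without day 210 replicate 2 the edgeR values were −0.60 (adjusted p = 0.160) and −0.50 (adjusted p = 0.391).

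CENPL, the partner of the nucleosome-binding CENPN, had 2.42, 1.98 and 2.04 FPKM at day 30, 1.66, 1.47 and 1.65 FPKM at day 90, and 1.87, 1.04 and 1.29 FPKM at day 210. Day 30 lay above both later ages without overlap, with fitted changes of −0.22 ± 0.21 at day 90 and −0.57 ± 0.21 at day 210 (adjusted p = 0.147, edgeR). CENPH (chromosome 16, 32911350 to 32938131) is the neighbour of CCNB1 on the same strand, 5631 bases away. Its change day 210 against day 90 was −0.62 ± 0.27 (adjusted p = 0.336, edgeR), while that of CCNB1 was −0.31 ± 0.40. CENPM, CENPK and CENPQ, subunits of the constitutive centromere network like CENPH, had positive fitted changes at day 90 against day 30 of 0.48, 0.44 and 0.13, and none passed. CENPW, a histone-fold partner of CENPT, had 0.830, 1.799 and 0.625 FPKM at day 210, from 22, 40 and 14 reads. Its highest day 210 library was thus the one in which CENPT was lowest.

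The remaining centromere proteins also differed in that library. CENPI had 2.31 FPKM in day 210 replicate 2 and 3.06 to 5.31 FPKM in the other 8 libraries. CENPN had 1.37 FPKM there and 1.71 to 3.98 FPKM elsewhere. CENPS, a histone-fold partner of CENPT, had 0.434 FPKM there and 0.822 to 2.04 FPKM elsewhere. Those CENPS values rest on few reads, 12 there and 28 to 65 elsewhere. CENPP and CENPU, of the same complex as CENPO, had 2.41 and 1.36 FPKM in that library, with ranges of 2.38 to 3.70 and 1.10 to 2.55 FPKM over all libraries. On the log2 CPM scale CENPP was lowest in that library, at 0.40 below its mean. The CENPP locus overlaps 3 loci without description that had 5129 to 7972 counts against its 2146, so its level is uncertain. In all, 14 of the 58 loci overlap another locus of the table, and for 7 of them a partner had more counts.

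The mitotic kinesins gave the second-lowest group in day 210 replicate 2, after the cyclins. KIF20A (chromosome 2, 11880058 to 11887929), a midzone motor needed for cytokinesis, had 8.47, 7.69 and 5.21 FPKM at day 30, 6.23, 3.67 and 4.14 FPKM at day 90, and 5.16, 1.74 and 4.32 FPKM at day 210. All day 210 values lay below all day 30 values. The fitted change was −0.90 ± 0.36 (adjusted p = 0.170, edgeR), and without day 210 replicate 2 it was −0.56 (adjusted p = 0.262). KIF11, the motor that pushes spindle poles apart, had 7.82, 7.29 and 6.65 FPKM at day 30, 7.74, 4.64 and 4.99 FPKM at day 90, and 7.75, 2.47 and 5.24 FPKM at day 210. KIF4A, a chromosome motor, had 4.47, 3.58 and 3.75 FPKM at day 30, 3.55, 2.32 and 2.25 FPKM at day 90, and 3.39, 1.08 and 3.01 FPKM at day 210. KIF4A was below day 30 without overlap at both later ages, with fitted changes of −0.36 ± 0.34 at day 90 and −0.61 ± 0.34 at day 210, while KIF11 overlapped in both.

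KIF15, which backs up KIF11, KIF23, a centralspindlin motor, and KIF2C, which takes microtubules apart at centromeres, stood at 1.26, 1.27 and 1.37 FPKM in day 210 replicate 2. In the other 8 libraries they lay at 2.04 to 4.005, 1.77 to 3.85 and 2.78 to 4.26 FPKM in the same order. KIF20B, a relative of KIF20A, was the exception among the 7 kinesins, with 2.23 FPKM in that library and 1.67 to 2.82 FPKM in the others.

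Of the condensins, NCAPH (condensin I) had 7.99, 6.51 and 5.80 FPKM at day 30, 5.93, 3.10 and 3.91 FPKM at day 90, and 5.62, 2.16 and 4.69 FPKM at day 210. NCAPD3, a condensin II subunit, had 7.48, 6.51 and 6.36 FPKM at day 30, 5.53, 4.23 and 4.44 FPKM at day 90, and 6.02, 4.14 and 5.70 FPKM at day 210. NCAPD3 and NCAPG2, also of condensin II, were below day 30 without overlap at both later ages. NCAPD3 had the smallest adjusted p of all members day 90 against day 30 (0.244, edgeR), at −0.33 ± 0.15. NCAPH2 lay between 6.56 and 10.2 FPKM, and all 4 condensin subunits were lowest in day 210 replicate 2. CENPJ, a centriole protein that the wording of the rule also admits, lay between 1.67 and 3.04 FPKM, and in day 210 replicate 2 it was 0.33 below its mean on the log2 CPM scale, its lowest library on that scale.

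**Figure D1:**
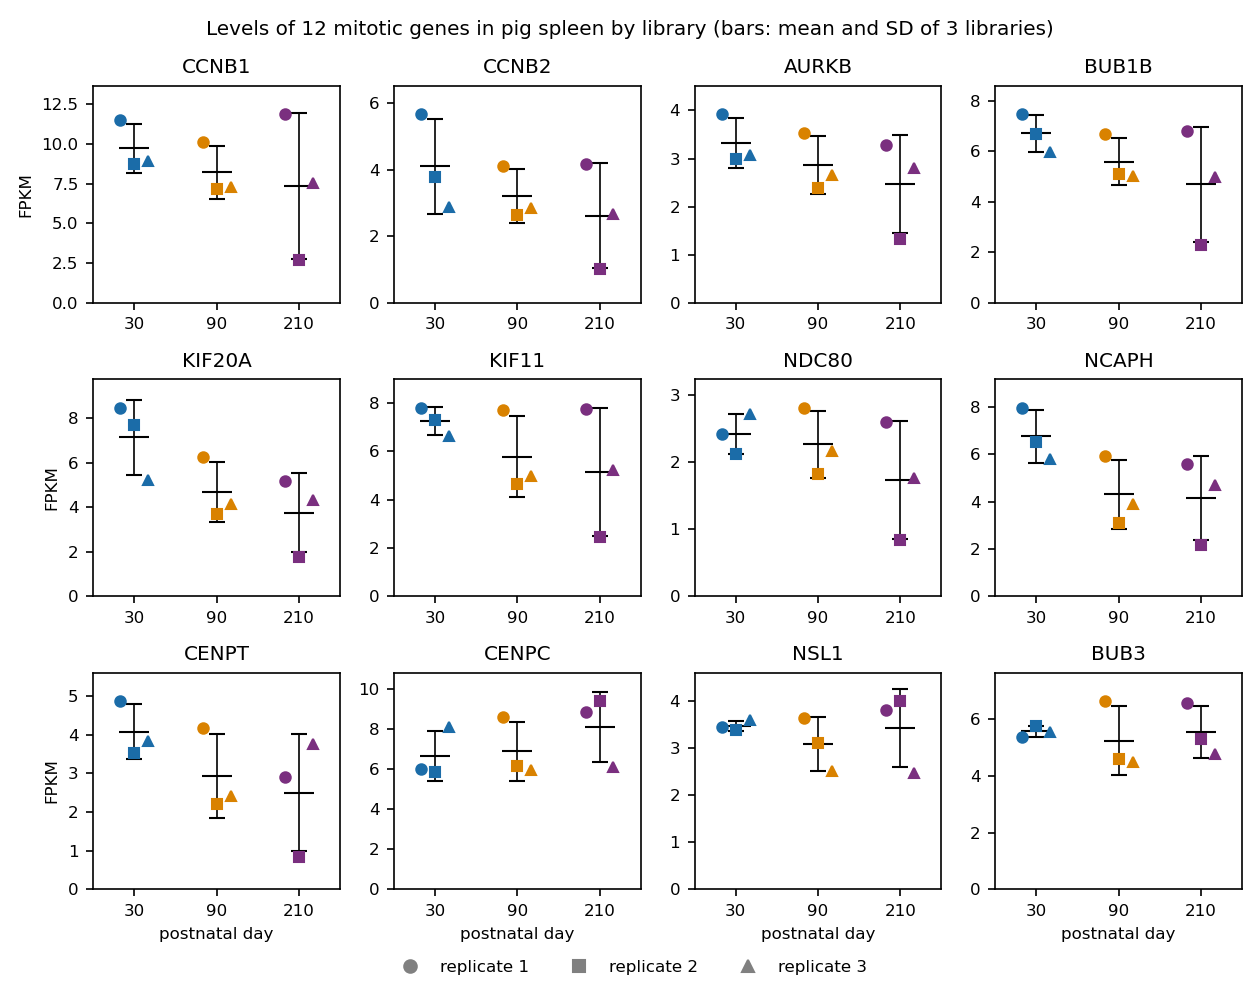
FPKM of 12 members (y axes start at 0) at postnatal days 30, 90 and 210, with 1 symbol per library and bars for the mean and SD of 3 libraries. In 9 of the panels, from CCNB1 to CENPT, the square at day 210 is the lowest value, while CENPC and NSL1 have their highest value there.

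Between ages, 0 of the 53 tested members passed the edgeR test in any pair. Day 90 against day 30 the test called 6.08% of all loci tested, and 0 members had even an unadjusted p under 0.05, where 23.1% of all loci did. In the pair day 210 against day 30 the shares were 6.24% of all loci called and 23.7% with an unadjusted p under 0.05, and among members 3 had such a p: CENPO, CENPL and KIF20A, all with negative changes. Day 210 against day 90 they were 0.535% and 14.1%, with 2 members, CENPO and CENPH, under the unadjusted threshold. For any difference among the 3 ages 7.64% of all loci and 0 members were called. An unadjusted p under 0.05 was found for 1 of the 53 members, where 26.0% of all loci had one. DESeq2 called 0 members at day 90 against day 30 (12.6% of all loci), 1 at day 210 against day 30 (CENPO, 11.9%), 0 at day 210 against day 90 (4.16%) and 1 for any age (CENPO again, 17.3%). Limma-voom called 0 members in each comparison. Of all 19264 loci it called 1260 day 90 against day 30, 1186 day 210 against day 30, 99 day 210 against day 90 and 1444 for any age.

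The fitted changes of the members had a median of −0.04 day 90 against day 30, with 34 of 53 negative. In day 210 against day 30 the median was −0.33 with 45 of 53 negative, and day 210 against day 90 it was −0.25 with 44 of 53 negative. The medians over all loci tested were within 0.01 of 0. Without day 210 replicate 2 the medians day 210 against day 30 and against day 90 were −0.12 and −0.02, with 37 and 28 of 53 negative. Members of a module share cells and libraries and do not count as independent observations of an age.

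The 95% intervals of the fitted changes show how large a difference the 3 libraries per age leave possible. They lay wholly within a 2-fold change either way for 39 of 53 members day 90 against day 30, for 28 day 210 against day 30 and for 34 day 210 against day 90. The median standard error was 0.30 on the log2 scale in each pair, and without day 210 replicate 2 it was 0.18 in the first pair and 0.20 in the others. With that library left out 7 of 53 members had an unadjusted p under 0.05 day 90 against day 30 (0 with it). In the same fit 4 had such a p day 210 against day 30 and 2 day 210 against day 90. The share of all loci with such a p in that fit is not given here, and with all libraries it was 23.1% day 90 against day 30. With the library left out 0 of the 53 passed in any pair, where 1150, 392 and 35 of all 19264 loci did, in the same order of pairs.

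**Figure D2:**
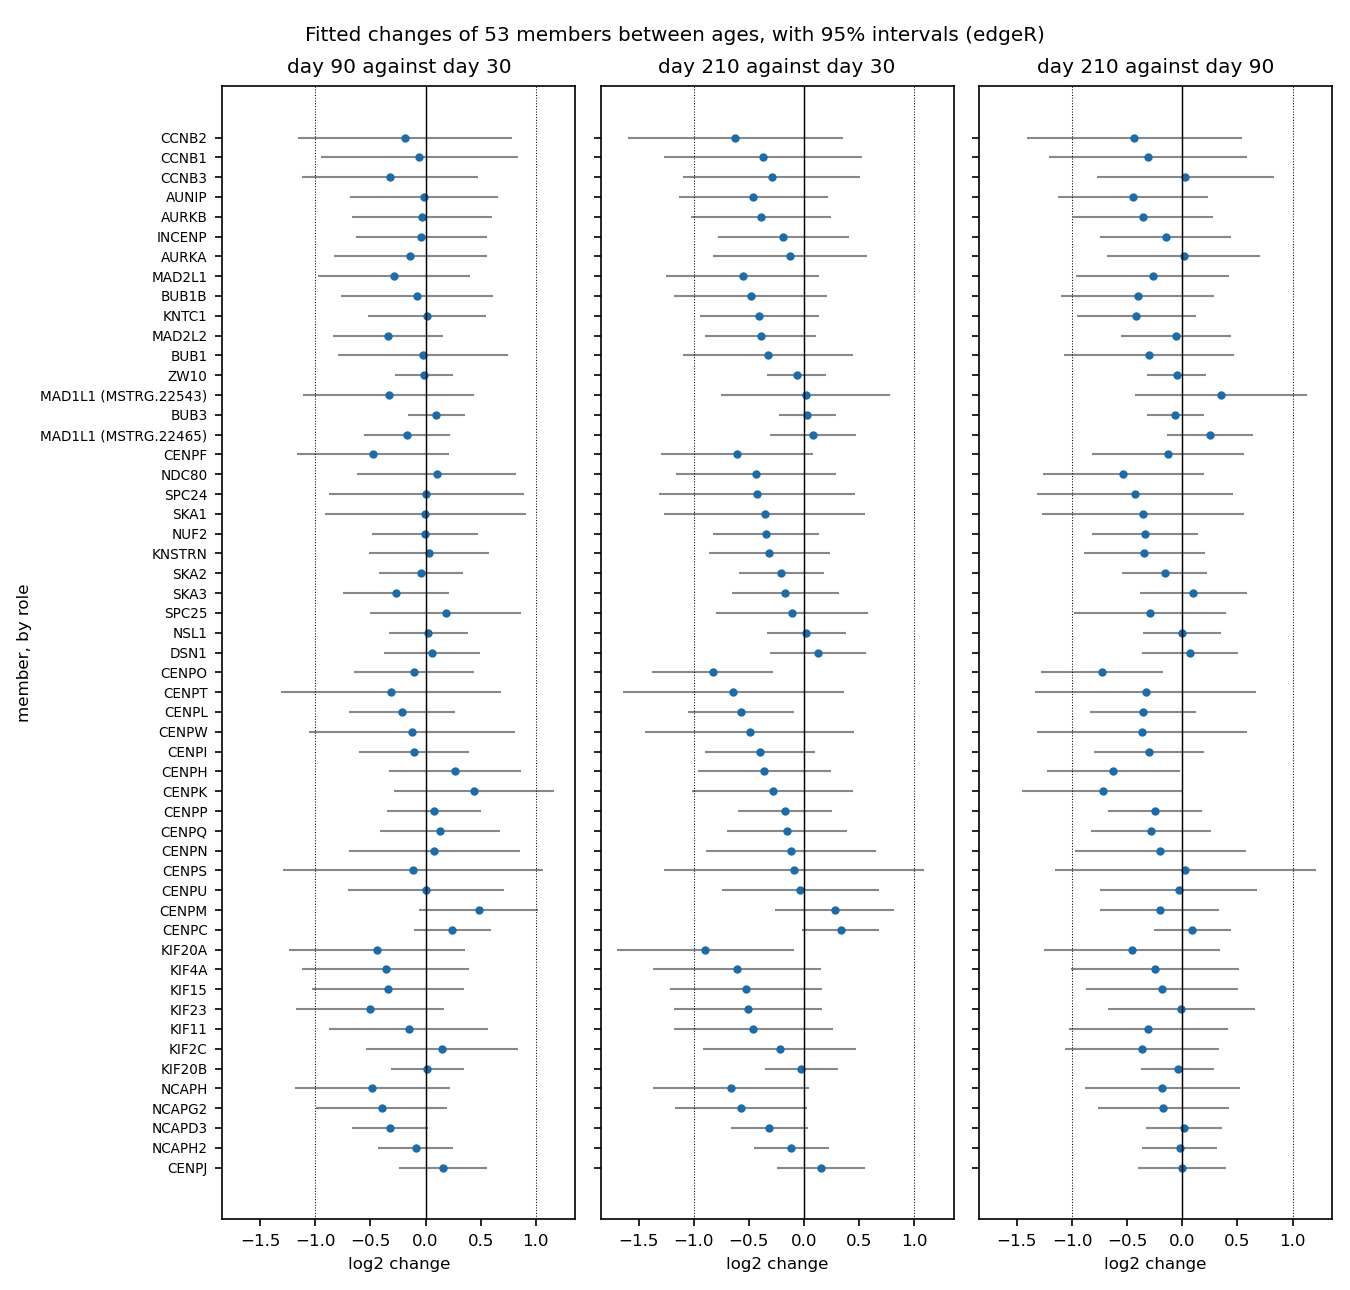
Fitted log2 changes (points) and their 95% intervals (lines) for the 53 tested members, grouped by role, in the 3 pairs of ages; dotted lines mark a 2-fold change. Points lie on both sides of 0 day 90 against day 30 and mostly left of 0 in the pairs with day 210, and the interval excludes 0 for 0, 3 and 2 members.

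By FPKM, 8 members had all day 90 values below all day 30 values and 0 had them above, where 25.2% and 3.17% of all loci tested did (28.4% in either direction). The 8 were CENPF, CENPL, KIF23, KIF4A, MAD2L2, NCAPD3, NCAPG2 and SKA3. Set against day 30, 8 members lay below at day 210 without overlap and 0 above (16.0% and 8.47% of all loci, 24.5% in either direction): CENPF, CENPL, CENPO, KIF20A, KIF4A, NCAPD3, NCAPG2 and NCAPH. Day 210 against day 90, SKA3 lay above and CENPO below (13.3% and 2.77% of all loci, 16.1% in either direction). As 8 of 53 is near or under these shares, the counts do not set the members apart from other loci.

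The largest difference in these genes was between libraries of the same age. Day 210 replicate 2 was the lowest of the 9 libraries for 35 of the 53 tested members, or 66.0%, where it was lowest for 9.66% of all loci tested by FPKM. By log2 CPM it was lowest for 39 members, or 73.6%, and for 15.4% of all loci, and the 4 added members were ZW10, DSN1, CENPP and CENPJ. On the log2 CPM scale its median deviation from the mean of the 9 libraries was −0.76 over the members, with 48 of 53 below the mean and 19 at least 2-fold below. Over all loci tested, 49.5% were below the mean in that library and 3.20% at least 2-fold below. In the other 8 libraries the median deviation of the members ran from −0.03 to 0.27, and 0 members were 2-fold below the mean. The high end was less concentrated: day 30 replicate 1 was highest for 22 members (41.5%, against 2698 of all 19264 loci) and day 90 replicate 1 for 16 (30.2%, against 20.9%).

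The deviation in that library differed by role. Its median deviation was −1.58 for the 3 cyclins, −1.20 for the 7 kinesins, −0.84 for the 4 tested loci of the aurora group, −0.72 for the 4 condensins, −0.70 for 11 outer and −0.51 for 14 inner kinetochore loci, and −0.16 for 9 checkpoint loci. After CENPT the lowest members were CCNB2 at −1.60, CCNB1 at −1.58, KIF20A at −1.48 and KIF4A at −1.42. At the other end CENPW stood at 0.49, MAD1L1 (MSTRG.22543) at 0.38, CENPC at 0.37, NSL1 at 0.25 and CENPQ at 0.09, and these 5 were the members above the mean. KIF20B, BUB3 and SKA3 were close to the mean, at −0.01, −0.07 and −0.07.

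**Figure D3:**
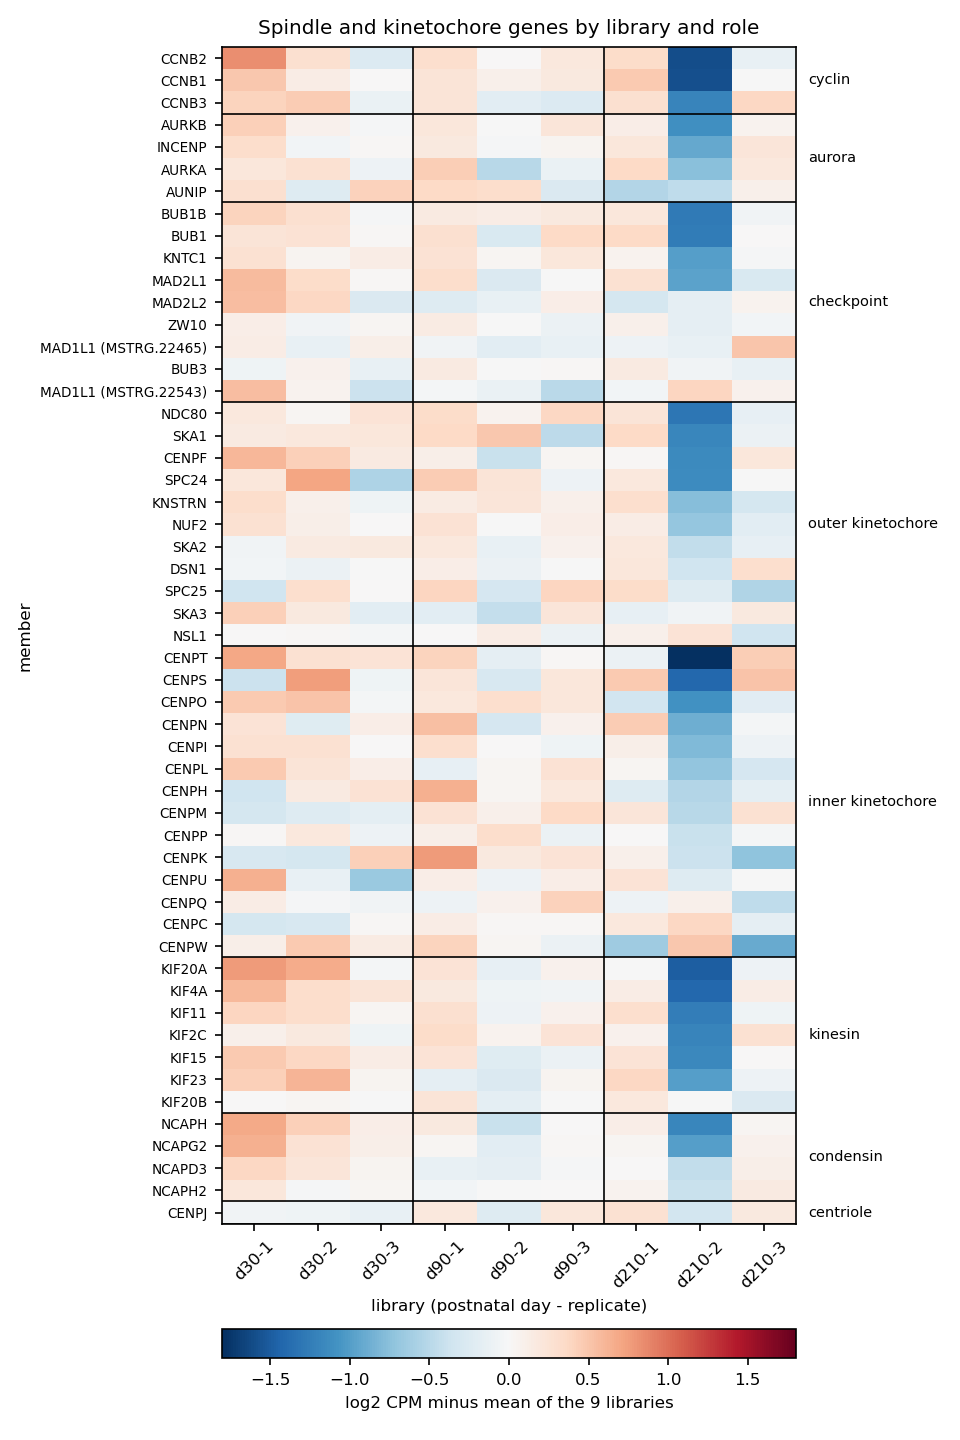
Deviation of each tested member (rows, grouped by role) from its mean over the 9 libraries, on the log2 CPM scale (colour), with libraries as columns (day - replicate). The column of day 210 replicate 2 is blue for 48 of 53 members, most deeply for cyclins, kinesins and CENPT, and pale or red for CENPC, CENPQ, CENPW, NSL1 and a MAD1L1 locus.

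Members had a larger spread within an age than loci in general, most of all at day 210. The SD of log2 CPM within an age had a median of 0.39 over the members and 0.23 over all loci tested. By age the members' median SD was 0.19 at day 30, 0.19 at day 90 and 0.53 at day 210, and that of all loci was 0.19, 0.16 and 0.25. For the cyclins the median SD at day 210 was 1.01, and for the kinesins 0.80. The labels name no batch. Day 210 replicate 2 had 50.0 M counted reads and day 210 replicate 3 had 48.9 M. The cause of the low values in day 210 replicate 2 was not tested.

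Ki-67 and DNA topoisomerase 2-alpha were named in the rule in wordings that match 0 descriptions. Ki-67 (MKI67), a coat protein of mitotic chromosomes, is in the table under another wording, and its levels are given beside the members. It had 11.6, 10.2 and 10.5 FPKM at day 30, 9.03, 7.19 and 6.95 FPKM at day 90, and 10.6, 2.97 and 7.71 FPKM at day 210. Its lowest value was again day 210 replicate 2, and its fitted changes of −0.29 ± 0.34 day 90 against day 30, −0.56 ± 0.34 day 210 against day 30 and −0.28 ± 0.34 day 210 against day 90 did not pass.

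Other mitotic genes outside the rule, from CDK1 and PLK1 to CENPA and CENPE, were matched at 50 loci, of which 47 were tested. Of these, 0 passed day 90 against day 30 (4 with an unadjusted p under 0.05, 1 called by DESeq2), 1 fell day 210 against day 30 (8 unadjusted, 2 called by DESeq2), and 0 passed day 210 against day 90 (1 unadjusted, 0 called by DESeq2). Their medians were −0.19, −0.46 and −0.25, and in day 210 replicate 2 their median deviation was −1.06. The 1 gene that fell was PTTG1, the securin that holds separase inactive until anaphase. PTTG1 had 11.7, 12.6 and 12.7 FPKM at day 30, 9.76, 5.74 and 6.78 FPKM at day 90, and 8.66, 4.98 and 5.76 FPKM at day 210, so all 6 later values lay below day 30. It fell by 0.89 ± 0.20 on the log2 scale (adjusted p = 0.0335, edgeR) day 210 against day 30, and its change day 90 against day 30 was −0.55 ± 0.20 (adjusted p = 0.130). The call at day 210 was lost when any of 6 single libraries was left out, with adjusted p from 0.0537 to 0.109, the highest without day 30 replicate 2. The change in those fits was −0.85 to −0.92 in 5 of them and −0.74 without day 210 replicate 2 (adjusted p = 0.0915).

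DNA replication genes stood low in the same library. The 14 loci, all tested, had a median deviation of −0.89 in day 210 replicate 2 and of 0.03 to 0.40 in the other 8 libraries. Their median fitted change was −0.09 day 90 against day 30, with 11 of 14 negative. It was −0.41 day 210 against day 30 (13 of 14 negative) and −0.36 day 210 against day 90 (12 of 14 negative). MCM5, a subunit of the replicative helicase, was the 1 of 14 that passed: it rose by 0.53 ± 0.13 day 210 against day 30 (adjusted p = 0.0454) and by 0.97 ± 0.13 day 210 against day 90 (adjusted p = 0.0238, both edgeR). Day 90 against day 30, 0 of the 14 passed by edgeR, with 1 at an unadjusted p under 0.05. Of 5 CDK inhibitor loci 3 were tested. CDKN1A, the p21 protein that holds cyclin-dependent kinases inactive, rose by 1.28 ± 0.26 day 210 against day 30 (adjusted p = 0.0250) and by 1.60 ± 0.26 day 210 against day 90 (adjusted p = 0.0415), and CDKN2D fell by 1.12 ± 0.28 day 210 against day 30 (adjusted p = 0.0459). The 3 CDK inhibitors had a median deviation of 0.10 in day 210 replicate 2.

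Marker lists of cells that divide in spleen differed from each other in their patterns over the libraries. Erythroid genes fell in 9 of 11 loci day 90 against day 30 and in 11 of 11 day 210 against day 30, with summed levels of 86.2 to 235 FPKM at day 30, 11.8 to 18.3 at day 90 and 8.75 to 17.5 at day 210. KLF1, an erythroid transcription factor, was listed at 0 in 4 of the 6 later libraries and RHAG in 1. The erythroid median deviation was −1.91, −0.79 and −1.04 at day 90 and −1.08, −1.89 and −1.43 at day 210. That of the members was 0.21, −0.02 and 0.04 at day 90 and 0.13, −0.76 and −0.03 at day 210. A link between these lists was not tested.

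Of the germinal centre genes, MYBL1 rose by 1.59 ± 0.24 day 90 against day 30. RGS13, an untested locus of the list, was listed at 0 in 2 day 30 libraries. The median deviation of the 5 tested germinal centre loci was −0.79, −0.35 and 0.61 in day 210 replicates 1, 2 and 3. B cell genes rose in 4 of 6 loci day 90 against day 30 (summed 109 to 126 FPKM at day 90 against 70.8 to 90.4 at day 30, and 66.8 to 75.7 at day 210), and CD79B fell day 210 against day 90. The B cell median deviation was −0.44, −0.38 and −0.04 in day 210 replicates 1, 2 and 3, and lowest in day 30 replicate 1 at −0.53. Plasma cell genes rose in 4 of 5 loci at both later ages against day 30 (summed 403 to 472 FPKM at day 30, 655 to 1207 at day 90 and 967 to 1233 at day 210), and stood at 0.34 in day 210 replicate 2. T cell genes rose in 1 of 7 loci (CD3D) day 210 against day 30 (summed 63.7 to 67.3 FPKM at day 30, 61.6 to 97.7 at day 90 and 72.6 to 101 at day 210) and stood at −0.09 in that library.

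Megakaryocyte genes fell in 3 of 4 tested loci at both later ages (summed 24.9 to 29.9 FPKM at day 30, 8.36 to 9.88 at day 90 and 5.91 to 8.80 at day 210). Myeloid precursor genes fell in 1 of 2 tested loci (CD34) at both later ages, with MPO and AZU1, of neutrophil granules, listed at 0 in 2 libraries each. The median deviation of the 2 tested myeloid precursor loci was −0.20, −0.41 and −0.29 in day 210 replicates 1, 2 and 3. As for the members, day 210 replicate 2 was the lowest library of this list. CD163, a macrophage receptor, was the 1 of 6 tested macrophage loci that rose, day 210 against day 30 and against day 90, and macrophage genes had a median deviation of 0.46 in day 210 replicate 2. The part of any of these cell types in the members' values was not tested.

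**Figure D4:**
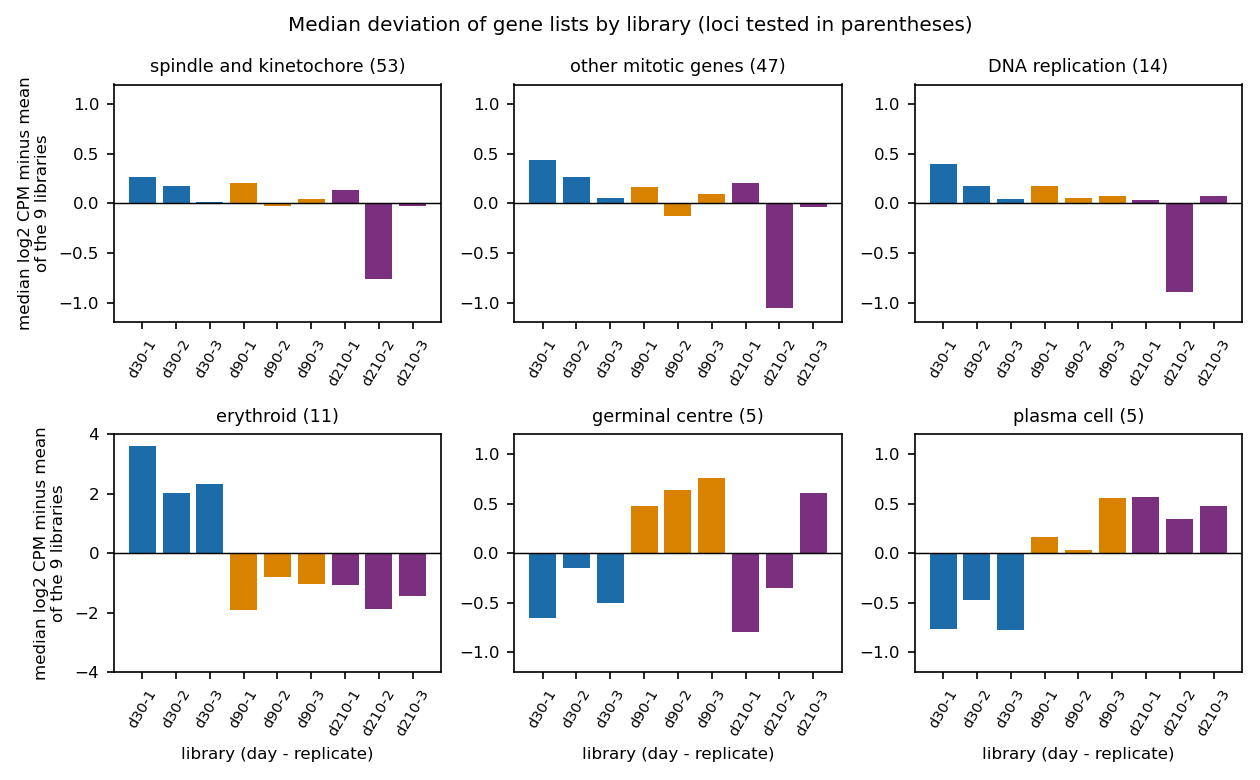
Median log2 CPM deviation of 6 gene lists from their means over the 9 libraries (bars, 1 per library, coloured by age; the erythroid panel has a wider y axis). The spindle and kinetochore, other mitotic and replication panels have their 1 deep negative bar at day 210 replicate 2 (−0.76, −1.06 and −0.89), while erythroid genes separate day 30 from both later ages.

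Circular RNAs from the member loci were few. The deposited circRNA table lists 82 circRNAs from 29 of the 58 loci among 18908 in all, of which 55 were seen in 1 library and 6 in at least 4. Junction reads over these loci numbered 15 to 26 in the day 30 libraries, 20 to 30 in those of day 90 and 9 to 26 in those of day 210, at most 0.219% of all junction reads in a library. The most abundant was a 4-exon circle of CENPC (chromosome 8, 66594588 to 66602973) with 15 junction reads over 6 libraries. BUB1B gave 2 circles with 8 reads each. At this depth no comparison between ages was made.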

How the data were processed

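Total RNA was extracted with Trizol and sequenced as paired-end libraries, per the labels' protocols, which name both oligo-dT selection and a fraction without poly(A). Per the submitters' processing notes, HISAT2 2.0, StringTie 1.3.0 and Bowtie 0.12.2 were used, without stated roles, and the counting tool and strand are not given in the sources used here. The authors deposited raw read counts and FPKM per locus, and for circRNAs junction read counts and a scaled signal (SRPBM), which was not used for any comparison.

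Members and lists were chosen with earlier results of these data known. Descriptions containing the rule's wordings gave the 58 loci, with KIF4 read as a wording of its own. The 19264 loci whose mean over the 9 libraries reached 1 FPKM were fitted with edgeR 4.0.16 (R 4.3.3; TMM, quasi-likelihood, 1 mean per age). Tests were two-sided, with Benjamini-Hochberg adjustment over all loci tested and a threshold of 0.05. The common biological coefficient of variation was 27.3%. Standard errors of log2 changes were derived from the change and its quasi-likelihood F. Deviations use log2 CPM with a prior count of 1. The fit was tested on simulated data. Alternatives used DESeq2 1.42.0, limma 3.58.1 (voom, or log2 of FPKM plus 1 or 0.1), other filters, 2 ages at a time, a replicate block and each library left out. A tested member had 12 to 5047 reads in a library, so counting error differs widely between members.

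Named genes were a fixed panel of members (cyclins, auroras, checkpoint, NDC80, SKA, centromere proteins, kinesins, condensins and Ki-67), any member called, the members with the highest and lowest means, and up to 8 called genes per comparison of the other mitotic list. Other members are named as examples, chosen after their values were seen. Promoter motifs were planned and are not analysed here. Results of some genes in the marker lists are not reported here.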

Additional observations from a re-analysis of the deposited data

How the results depend on the processing

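Counts of members past the threshold were 0 in each pair of ages and for any age under every alternative run except DESeq2, which called 1 day 210 against day 30 and 1 for any age; leaving out each library in turn gave 0 to 0 in all 4. Among the other mitotic genes the count day 90 against day 30 (0 as reported) was 1 with DESeq2, 2 with limma on log2(FPKM + 1), 2 on log2(FPKM + 0.1), 1 with only the 2 ages fitted, and 0 to 1 with libraries left out. Day 210 against day 30 (1 as reported) it was 0 without a filter, 2 with DESeq2, 0 with only the 2 ages fitted, and 0 to 4 with libraries left out, the 4 (ECT2, PTTG1, HMMR and SMC2) without day 210 replicate 1. For any age (0 as reported) it was 1 with RLE scaling, 3 with DESeq2, 1 with limma-voom, 1 and 1 on the FPKM scales, and 0 to 2 with libraries left out. Over all loci the count for any age was 1471 as reported, 3324 with DESeq2, 651 with the replicate block and 493 to 1671 with libraries left out. Causes were not tested.

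The labels do not say whether the replicate numbers pair the libraries. Deviations of same-numbered libraries correlated at −0.07 to 0.10, which cannot decide it, as differently numbered libraries were not compared. With the replicate block 0 members were called in each pair and for any age, and 0 other mitotic genes day 210 against day 30, where PTTG1 had an adjusted p of 0.0541 (edgeR). Of all 19264 loci that fit called 582 day 90 against day 30, 531 day 210 against day 30, 43 day 210 against day 90 and 651 for any age. Of 2430 changes of named members under alternatives, 143 had the other sign, and these passed in neither fit. In the fit without day 210 replicate 2 alone, 28 of 135 changes had the other sign. On the FPKM scales, which are not TMM-scaled, the members' median day 90 against day 30 was −0.19 and −0.24, and that of all loci −0.15 and −0.19. With 3 libraries per age the members' median standard error of 0.30 (log2) limits which differences could be called.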
